A study of Arabidopsis thaliana with 9 samples.

Results

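DDM1 and 9 further genes that keep DNA methylation in place through cell division were followed in leaf RNA of Arabidopsis thaliana, in 9 libraries of 3 genotypes. They were chosen by locus name: the chromatin remodeller DDM1 (AT5G66750), the DNA methyltransferases MET1 (AT5G49160), CMT2 (AT4G19020) and CMT3 (AT1G69770), the methylcytosine-binding proteins VIM1 (AT1G57820), VIM2 (AT1G66050) and VIM3 (AT5G39550), and the histone methyltransferases KYP (AT5G13960), SUVH5 (AT2G35160) and SUVH6 (AT2G22740). All 10 were among the 33602 loci of the deposited tables, and 6 of them (MET1, CMT2, CMT3, VIM1, KYP and SUVH6) had enough reads for a test. The groups were wild type (WT Col-0, also called Col-0), an F1 of Col-0 and ddm1 that carried 1 functional and 1 mutant DDM1 copy (Col-0 X ddm1), and homozygous ddm1 mutants of the 2nd generation, with 3 independent biological replicates each. All plants were 4 to 5 weeks old. The sources used here do not give the ddm1 allele, the number of plants per library, the time of harvest or which parent was the mother.

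In plants, a methyl group on cytosine is copied to the new DNA strand by separate enzymes for separate sequence contexts. MET1 copies methylation at CG sites, guided by the VIM proteins, which bind sites methylated on the old strand alone. CMT3 and CMT2 act outside CG sites, at nucleosomes whose histone H3 carries the lysine 9 methylation laid down by KYP, SUVH5 and SUVH6, and the histone enzymes in turn bind the methylated DNA. DDM1 moves nucleosomes so that these enzymes can reach compact heterochromatin. Because the copying follows DNA replication, MET1, CMT3, DDM1 and VIM1 are known as genes of dividing cells, which are few in a grown leaf.

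The libraries held 15996806 to 22425699 estimated counts, of which 5212809 to 7574828 lay outside the organelle genomes. The members were scarce, from 25.3 counts for VIM2 to 1250 for CMT2 over all libraries. Each of 9 leaf markers (Rubisco small subunits, light-harvesting proteins and others) had counts in every library, whereas the shoot meristem genes CLV3 and WUS had 0 counts in all 9 and STM and KNAT1 had at most 1. The F1 libraries stood apart in these leaf genes. Their summed level was 2447, 3169 and 4606 CPM (counts scaled to the library size, after TMM) in F1. It was 8772 to 17780 in wild type and 8145 to 17928 in ddm1. Of the 9 genes, 8 were lower in F1 than in wild type (edgeR adjusted p under 0.05), where 9.66% of all tested genes were. The share of counts from organelle genes was also apart, at 72.8%, 71.4% and 70.6% in F1, against 64.7% to 68.9% in wild type and 66.2% to 67.9% in ddm1. The part of both in the F1 differences was not tested. Such values in bulk leaf RNA cannot tell fewer cells of a type from less RNA per cell.

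DDM1, the gene mutated in the study, lies on chromosome 5 (26648897 to 26653191, plus strand, 16 exons) and was among the scarcest members in every genotype. Its estimated counts were 3, 12 and 5 in Col-0, 2, 0 and 8 in F1 and 1, 2 and 2 in ddm1. In CPM these were 0.150, 0.557 and 0.210 in Col-0, 0.116, 0 and 0.370 in F1 and 0.0419, 0.114 and 0.135 in ddm1. All 3 ddm1 libraries thus lay below all 3 wild-type libraries, while F1 overlapped both. The difference between ddm1 and wild type had a two-sided exact permutation p of 0.1, the smallest that 3 libraries against 3 allow, and F1 gave 0.5 against wild type and 0.8 against ddm1. Summed over libraries, DDM1 had 5 counts in ddm1 and 20 in wild type, a ratio of 0.291 after scaling (exact Poisson 95% interval 0.0854 to 0.799, counting error only). The wild-type sum rested on library 2, without which the ratio was 0.488 with an interval of 0.126 to 1.69. The F1 ratio was 0.580 (0.243 to 1.3), an interval that includes the full wild-type level. Without wild-type library 2 it was 0.972. DDM1 did not pass the filter on low counts, and edgeR run without that filter gave it a log2 fold change of -1.61 in ddm1 (95% interval -4.51 to 1.29). The labels do not say whether the mutant allele removes the transcript, so the level does not check the genotypes.

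**Figure D1:**
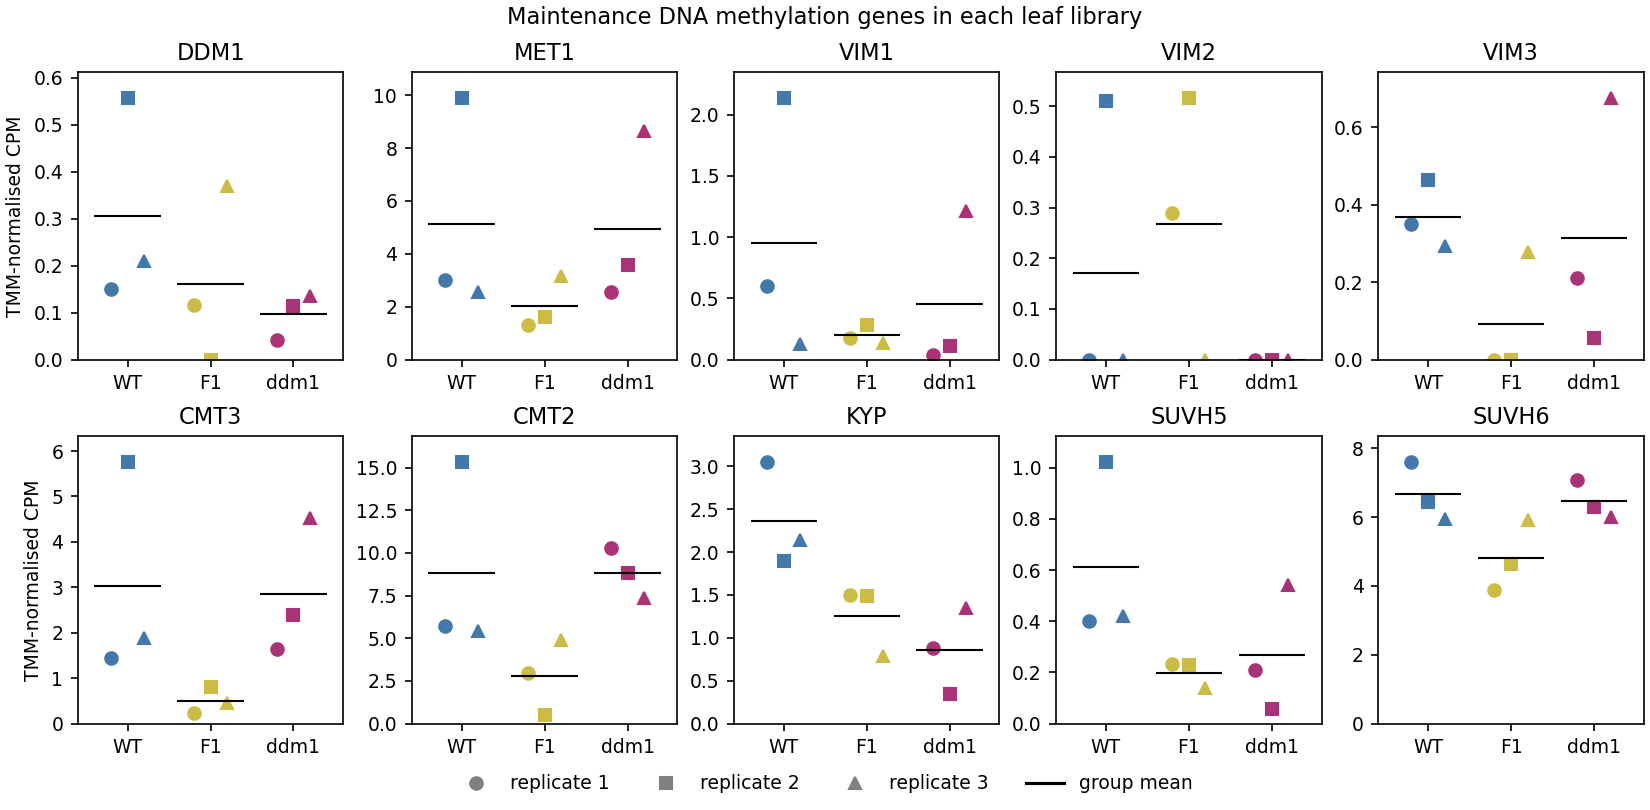
Level of each of the 10 genes in each library, in CPM scaled by TMM (linear axes from 0, a separate scale per gene), with 3 libraries per genotype and the group mean as a bar. CMT3 in F1 (0.231 to 0.802) lies below every other library, KYP lies highest in wild type, and wild-type library 2 and ddm1 library 3 stand high for MET1, CMT3 and VIM1.

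MET1, on chromosome 5 (19932114 to 19938470), copies CG methylation and was measured at 3.0, 9.88 and 2.56 CPM in Col-0, 1.33, 1.6 and 3.15 in F1 and 2.56, 3.60 and 8.64 in ddm1. The genotypes overlapped, and the spread inside wild type and inside ddm1 was larger than any difference between them. Its mean was 5.14 ± 4.11 CPM (SD, n = 3) in Col-0, beside 4.93 ± 3.25 (n = 3) in ddm1. The log2 fold change of ddm1 against wild type was -0.07 with a 95% interval of -1.48 to 1.34 (edgeR adjusted p = 0.988), which does not exclude a 2.53-fold rise. F1 was at 2.03 ± 0.979 CPM (n = 3), with a log2 fold change of -1.33 against wild type (SE 0.65, edgeR adjusted p = 0.165). Without wild-type library 2 that value was -0.54 (edgeR adjusted p = 0.584).

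The VIM genes encode the proteins that bring MET1 to newly replicated DNA, and some of their copies share long identical stretches. Of the 50-base windows of the VIM2 transcript, 70.7% occurred unchanged in another annotated transcript, 68.0% in its neighbour VIM4 (AT1G66040) and 14.5% in VIM3. For VIM3 the shared part was 16.3%, and for VIM1 it was 0%. A 50-base read from such a window fits both copies. A run common to VIM2, VIM3, VIM4 and VIM5 (AT1G57800) is printed to show how alike the copies are: 54 coding bases that begin in exon 5 and run across an intron, at chr1:24591606-24591744 on the plus strand for VIM2 and chr5:15838262-15838402 on the minus strand for VIM3 (RefSeq, TAIR10.1). VIM1 (chr1:21415567-21415699, minus strand) differs from it at 2 bases, which are in capitals.
VIM2, VIM3, VIM4 and VIM5: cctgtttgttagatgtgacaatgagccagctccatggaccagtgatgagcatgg
VIM1: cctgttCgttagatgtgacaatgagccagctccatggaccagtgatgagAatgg

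VIM1, which shared no window, had 12, 46 and 3 counts in Col-0, 3, 5 and 3 in F1 and 1, 2 and 18 in ddm1. Wild-type library 2 and ddm1 library 3 were high and the genotypes overlapped. Its log2 fold change was -2.23 in F1 (SE 1.27, edgeR adjusted p = 0.233) and -1.11 in ddm1 (SE 1.20, edgeR adjusted p = 0.843) against wild type. Without wild-type library 2 these values were -0.93 and 0.28, without wild-type library 3 the F1 value was -2.81, and without ddm1 library 1 or 3 the ddm1 value was -0.52 or -3.56. The estimated counts of VIM2 were 0, 11.3 and 0 in Col-0, 5, 9 and 0 in F1 and 0 in each ddm1 library, where a sum of 0 allows up to 3 counts. VIM3 had 7, 9.65 and 7 counts in Col-0, 0, 0 and 6 in F1 and 5, 1 and 10 in ddm1. The fractional values in wild-type library 2 are estimates and not whole reads. Added together, VIM2, VIM3 and VIM4 had 7, 21 and 7 counts in Col-0, 5, 9 and 8 in F1 and 5, 1 and 10 in ddm1. These sums overlapped among all genotypes, and the division of shared reads between single copies is uncertain. VIM5 had 0 counts in every library, and VIM4 had 2 in all, both in F1 library 3.

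CMT3, the chromomethylase that copies methylation at CHG sites, was the one member that passed the test, and it was lower in F1. On chromosome 1 (26248118 to 26253687, minus strand, 21 exons), it stood at 1.45, 5.75 and 1.89 CPM in Col-0, 0.231, 0.802 and 0.463 in F1 and 1.64, 2.40 and 4.52 in ddm1. Every F1 library lay below every library of the other genotypes. Behind these levels were 29, 124 and 45 counts in Col-0, 4, 14 and 10 in F1 and 39, 42 and 67 in ddm1. CMT3 fell by 2.59 on the log2 scale in F1 against wild type (SE 0.69, edgeR adjusted p = 0.0259), a level 6.02-fold lower, with a 95% interval of the log2 value from -4.15 to -1.03. It was 5.63-fold higher in ddm1 than in F1 (log2 fold change 2.49, SE 0.69, edgeR adjusted p = 0.0399). Against wild type, ddm1 differed by less than the spread between replicates, a difference that shares no F1 library (log2 fold change -0.10, SE 0.62, edgeR adjusted p = 0.984). The comparisons that called it share the F1 libraries. The call against wild type was lost without wild-type library 2 (edgeR adjusted p = 0.0841, log2 fold change -1.83), F1 library 1 (0.0940) or F1 library 3 (0.0537), and that against ddm1 without any F1 library or ddm1 library 2 or 3 (edgeR adjusted p = 0.0634 to 0.134), while all of these fits kept the direction.

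CMT2, the related enzyme of CHH sites in heterochromatin (chromosome 4, 10414428 to 10421265), was measured at 5.74, 15.3 and 5.46 CPM in Col-0, 2.95, 0.516 and 4.90 in F1 and 10.3, 8.85 and 7.36 in ddm1. The F1 libraries again lay below all others, with F1 library 2 the lowest at 9 counts. The log2 fold change of F1 was -1.65 against wild type (SE 0.66), which did not pass the test (edgeR adjusted p = 0.101), but DESeq2 called it (adjusted p = 0.0412). The log2 fold change of ddm1 against F1 was 1.65 (SE 0.66, edgeR adjusted p = 0.119). Wild type and ddm1 had means of 8.83 ± 5.61 and 8.83 ± 1.46 CPM (SD, n = 3), and their log2 fold change of 0.00 had an interval from -1.42 to 1.42 (edgeR adjusted p = 0.9996).

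Of the tested histone methyltransferases, KYP had the wider gap between wild type and ddm1. KYP, also known as SUVH4 (chromosome 5, 4501362 to 4506250), stood at 3.05, 1.90 and 2.14 CPM in Col-0, 1.50, 1.49 and 0.786 in F1 and 0.881, 0.343 and 1.35 in ddm1. All 3 wild-type libraries lay above the other 6. The log2 fold change of ddm1 against wild type was -1.46 (SE 0.52, 95% interval -2.63 to -0.30, unadjusted p = 0.0193), which did not pass after adjustment over all tested genes (edgeR adjusted p = 0.198). For F1 it was -0.91 (SE 0.51, edgeR adjusted p = 0.223). Of its 50-base windows, 0.485% were shared, all with AT5G13970, a gene on the opposite strand whose end overlaps it by 60 bases.

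SUVH6, on chromosome 2 (9662638 to 9667038, minus strand), had the highest TPM of all 10 in 8 of 9 libraries. It stood at 7.59, 6.45 and 5.96 CPM in Col-0, 3.87, 4.64 and 5.92 in F1 and 7.09, 6.28 and 6.01 in ddm1. The wild-type and ddm1 libraries shared 1 range, and F1 library 3 lay just below the lowest wild-type library. The log2 fold change was -0.04 in ddm1 (95% interval -0.56 to 0.47, edgeR adjusted p = 0.979) and -0.47 in F1 (-0.98 to 0.05, edgeR adjusted p = 0.169). An antisense noncoding RNA, AT2G07845, holds 40.9% of its windows. Without the strand setting of the authors' counting, its reads are therefore not certain to be its own. The gene span of AT2G22730 overlaps it on the opposite strand for 1496 bases, but their transcripts share no 50-base window. SUVH5 (chromosome 2, 14822774 to 14826194) had 8, 22 and 10 counts in Col-0, 4, 4 and 3 in F1 and 5, 1 and 8 in ddm1, too few for the filter. Its F1 libraries lay below the wild-type ones in CPM, and those of ddm1 overlapped both.

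**Figure D2:**
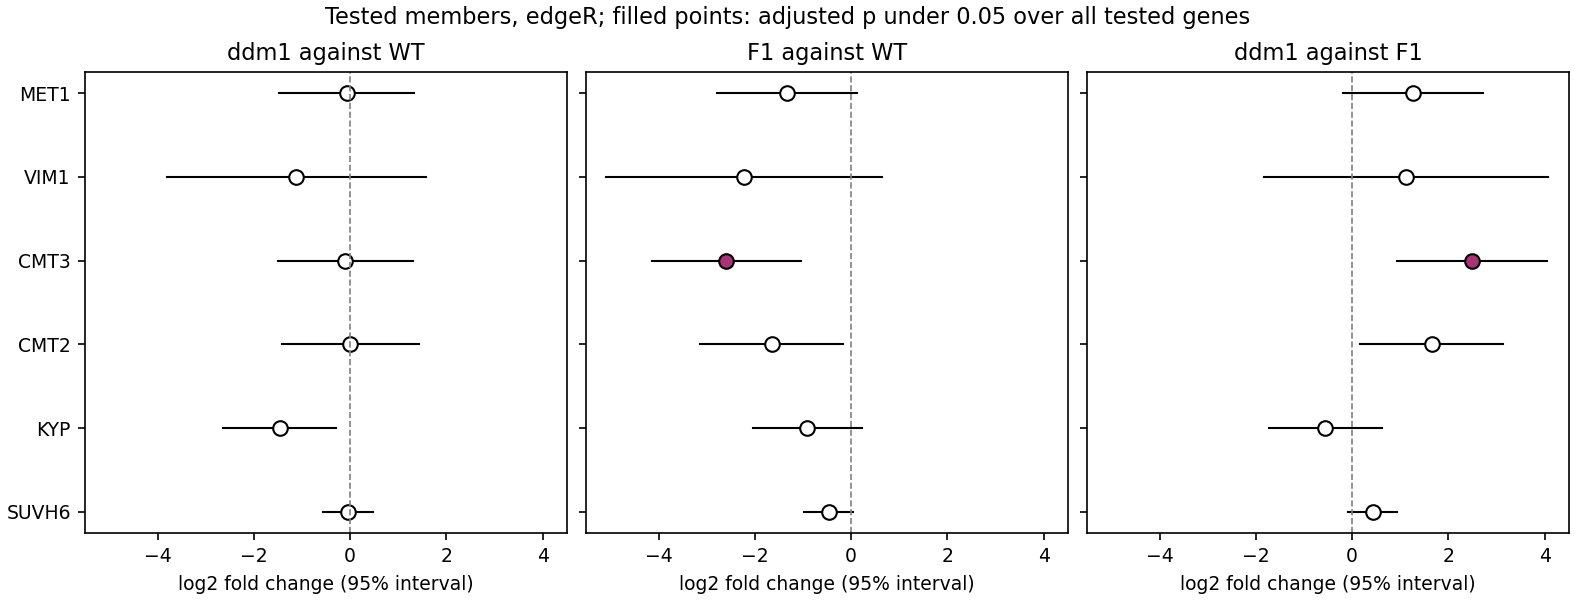
Log2 fold changes of the 6 tested genes with their 95% intervals in each comparison (edgeR). CMT3 is filled in F1 against wild type and in ddm1 against F1, the only calls, and every interval in ddm1 against wild type includes 0 except that of KYP.

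Counted over the 6 tested members, edgeR called 0 higher and 0 lower in ddm1 against wild type, where 7.37% of all 18216 tested genes were called in either direction (6.87% higher and 0.500% lower). DESeq2 also called 0, and at an unadjusted p under 0.05 edgeR had 1, KYP. In F1 against wild type 1 of 6 was lower and 0 higher, where 23.2% of all tested genes were called, 9.66% lower and 13.5% higher. In ddm1 against F1 1 of 6 was higher and 0 lower, where 16.5% of all tested genes were called, 10.3% higher and 6.21% lower. The groups did not overlap, with F1 lower, for CMT2, CMT3, KYP and SUVH6 among the tested members in the comparison with wild type, as in 17.3% of all tested genes (42.8% in either direction). In ddm1 against F1 the groups did not overlap, with ddm1 higher, for CMT2, CMT3 and SUVH6, against 20.9% of all tested genes (39.6% in either direction), and in ddm1 against wild type, with ddm1 lower, for KYP, against 5.60% (18.0% in either direction). The median log2 fold change of the 6 was -0.08 in ddm1 and -1.49 in F1 against wild type, beside 0.03 and 0.12 for all tested genes, and 1.19 in ddm1 against F1, beside 0.01. Members could reach the test through the group in which they were high, and the comparisons share libraries, so these counts are descriptions.

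On the length-scaled TPM scale, which allows levels of different genes to be compared, the order in wild type ran from SUVH6 (2.98 ± 0.224, SD, n = 3) and CMT2 (2.45 ± 1.68) over CMT3 (1.3 ± 1.08), KYP (1.24 ± 0.228) and MET1 (1.22 ± 1.03) to VIM1 (0.536 ± 0.615), SUVH5 (0.258 ± 0.162), VIM3 (0.197 ± 0.0504), DDM1 (0.140 ± 0.107) and VIM2 (0.107 ± 0.185). Each pair of neighbours in that order overlapped in range. In F1, CMT3 (0.168 ± 0.0859) stood behind KYP (0.537 ± 0.130) and MET1 (0.400 ± 0.243), and SUVH6 (1.80 ± 0.594) stood clear of CMT2 (0.661 ± 0.570), the only neighbours of 9 pairs without overlap. In ddm1 the order began with SUVH6 (2.67 ± 0.405), CMT2 (2.21 ± 0.506), CMT3 (1.07 ± 0.497) and MET1 (1.02 ± 0.613), with CMT2 clear of CMT3, and KYP (0.414 ± 0.229) came after MET1. DDM1 was at 0.0651 ± 0.0799 TPM in F1 and 0.0389 ± 0.0180 in ddm1.

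**Figure D3:**
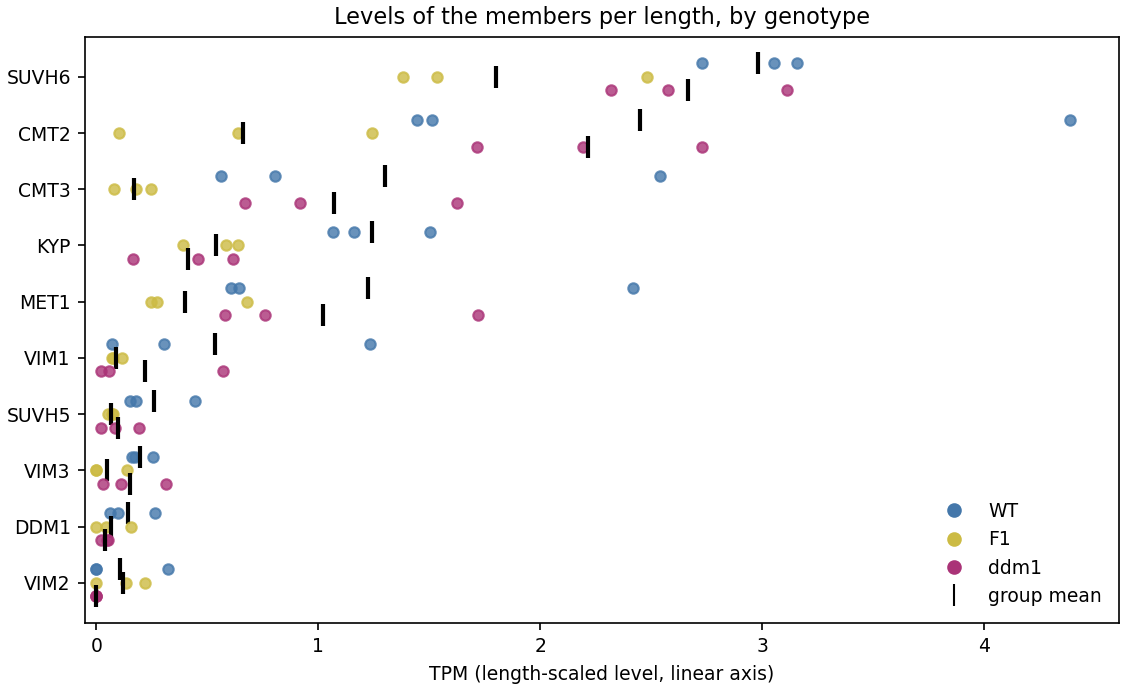
TPM of each gene in each library (points, linear axis) and the group means (black ticks), ordered by the wild-type mean. SUVH6 leads in all genotypes, CMT2 in wild-type library 2 (4.39 TPM) is the highest single value, and CMT3 in F1 (0.0769 to 0.247 TPM) has no overlap with the other genotypes.

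Several members were highest in the libraries richest in S phase genes. The summed level of 29 S phase and cell cycle genes (MCM, PCNA, histone H3.1 and others) was 31.6, 74.2 and 24.4 CPM in Col-0, 18.6, 22.2 and 31.3 in F1 and 30.6, 30.7 and 92.0 in ddm1. Wild-type library 2, F1 library 3 and ddm1 library 3 thus held the most. The same libraries also held the most of the leaf markers in their genotypes (17780, 4606 and 17928 CPM). They led as well in the SAM cycle genes described below (1270, 525 and 1172 CPM). Their high levels are therefore not particular to S phase genes, and the share of all genes highest in these libraries was not counted. Not every list led there. The other chromatin remodelling ATPases described below summed to 304, 371 and 273 CPM in these libraries. They were highest in wild-type library 3 (347), F1 library 1 (401) and ddm1 library 2 (355). The paralogs described below led in ddm1 library 3 (94.6 CPM) but in neither of the others. DDM1, MET1 and VIM3 were highest in the library richest in S phase genes in all 3 genotypes. CMT2, CMT3, VIM1 and SUVH5 were so in 2 of 3, and KYP, SUVH6 and VIM2 in 1. For DDM1 in ddm1 this was a tie in counts, with 2 in library 2 and 2 in library 3, and only the scaled level was higher. For VIM3 in wild type it rested on 9.65 estimated counts beside 7 and 7. F1 library 3 had 31.3 CPM of S phase genes and 0.463 of CMT3, the latter from 10 counts. Wild-type library 1 and ddm1 libraries 1 and 2 had 31.6, 30.6 and 30.7 CPM of S phase genes. Their CMT3 was 1.45, 1.64 and 2.40 CPM. These values describe single libraries. MET1 in these 4 libraries lay between 2.56 and 3.60 CPM. In the leaf markers F1 library 3 stayed below those libraries (4606 CPM against 8145 to 12805). The part of the S phase and leaf genes in the CMT3 difference was not tested. With the highest S phase library of each genotype left out, the CMT3 log2 fold changes were -1.78 in F1 against wild type (edgeR adjusted p = 0.0718) and 2.05 in ddm1 against F1 (edgeR adjusted p = 0.0511), neither of them a call, and CMT2 was called higher in ddm1 than in F1 (log2 fold change 2.56, edgeR adjusted p = 0.0256).

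**Figure D4:**
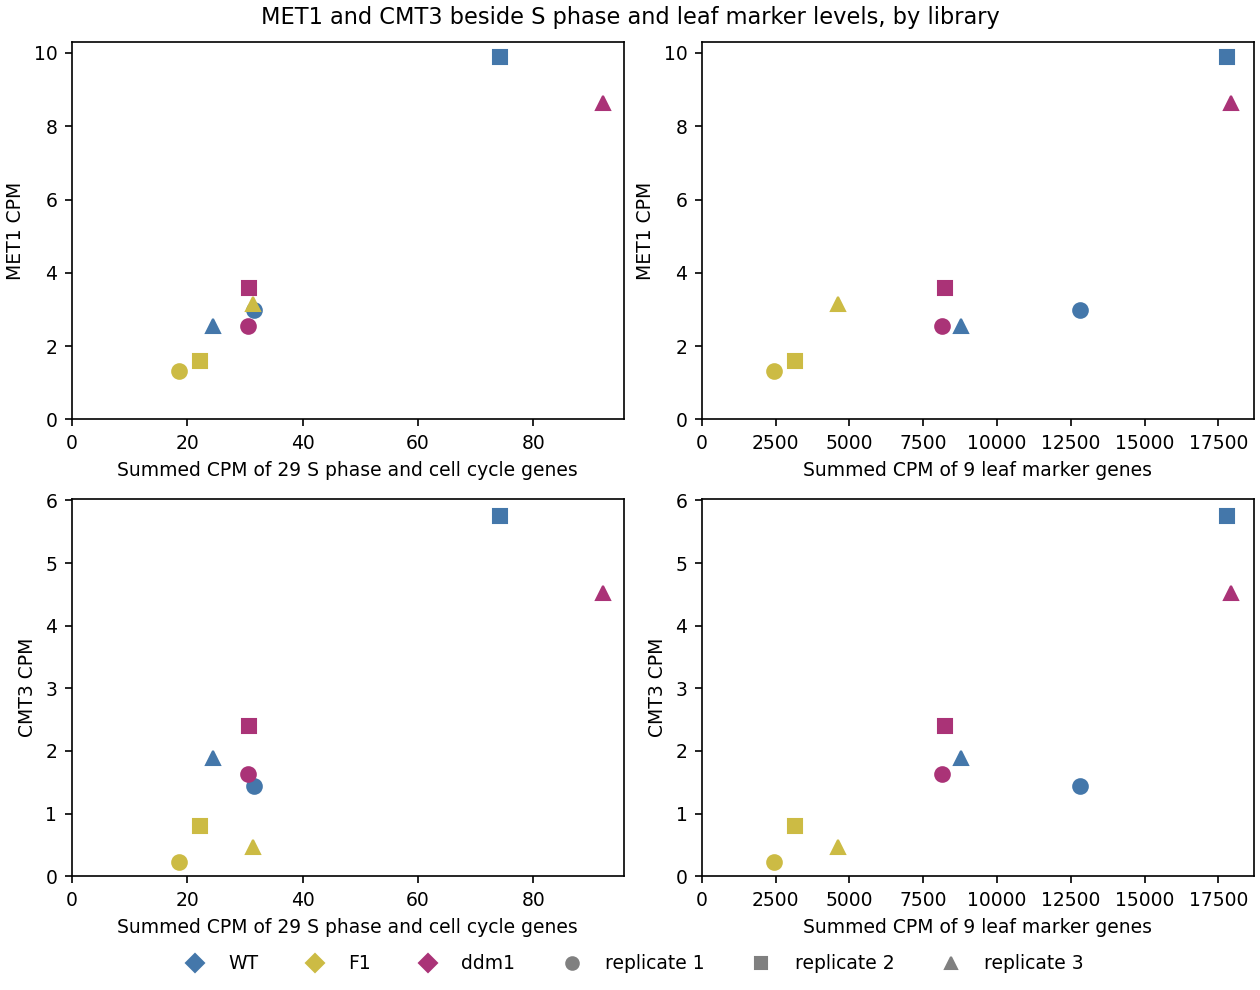
MET1 (top) and CMT3 (bottom) in CPM against the summed CPM of 29 S phase and cell cycle genes (left) and of 9 leaf marker genes (right), 1 point per library, on linear axes. MET1 is highest where S phase genes and leaf markers are (wild-type library 2 and ddm1 library 3), and CMT3 in every F1 library lies below all others.

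The E2F factors are regulators of S phase genes. CMT3 was the one member with a match near its start to the searched forms of their sequence motif. The other members had no match to these forms. Any part of the motif in the CMT3 values was not tested. The motif was searched as TTTCCCGC, TTTGGCGC, TTTCGCGC or TTTGCCGC on both strands, from 250 bases before to 50 after the annotated gene start. The motif was chosen after these data were seen, and other forms of it were not searched. It was found in 1 of 10 members, in 10 of the 29 S phase genes and in 483 of 27443 nuclear protein-coding genes (1.76%). The CMT3 match lies 22 bases after the start, at chr1:26253647-26253676 on the minus strand (RefSeq, TAIR10.1), and is shown with its surroundings, the motif in capitals.
CMT3: aaacccatcacTTTGGCGCttatgtgacgc
A match in letters is a description and not a measured binding site.

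Of 20 paralogs and related histone methylation genes, 11 were tested and edgeR called 0 in ddm1, where 7.37% of all tested genes were called. It called 1 without wild-type library 2 or the highest S phase libraries. At an unadjusted p under 0.05 it had 1, and DESeq2 called 0. The tested paralogs with the largest log2 fold changes were ORL1, a VIM-like gene (2.06, SE 0.83, edgeR adjusted p = 0.295), and SUVR2 (-1.20, SE 1.11, edgeR adjusted p = 0.799). ORL1 (AT4G08590) had 20, 56 and 17 counts in Col-0, 3, 11 and 16 in F1 and 47, 43 and 203 in ddm1. All ddm1 libraries were above those of F1 and ddm1 library 3 stood far above the rest. It was higher in ddm1 than in F1 (log2 fold change 3.51, SE 0.91, edgeR adjusted p = 0.0317), a call lost without F1 library 1 or 2 or ddm1 library 3 (edgeR adjusted p = 0.0940 to 0.112) or with a replicate block (0.0544). Without ddm1 library 3 the log2 fold change was 2.08. IBM1, the demethylase that removes lysine 9 methylation from genes, was at 11.2 ± 1.77 CPM in Col-0, 12.7 ± 1.76 in F1 and 11.5 ± 2.14 in ddm1 (SD, n = 3; log2 fold change in ddm1 0.04, interval -0.45 to 0.53, edgeR adjusted p = 0.979).

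SUVH1 was the paralog called lower in F1. SUVH1, a relative of KYP that reads DNA methylation, stood at 8.34, 10.2 and 11.2 CPM in Col-0, 4.68, 5.50 and 4.95 in F1 and 11.7, 8.68 and 9.85 in ddm1. The F1 libraries were apart from all others and the spread inside each genotype was small. SUVH1 fell by 0.98 on the log2 scale in F1 (SE 0.21, edgeR adjusted p = 0.0102) and was higher by 0.997 in ddm1 than in F1 (SE 0.21, edgeR adjusted p = 0.0157). Both calls were lost without F1 library 1 (edgeR adjusted p = 0.0503 and 0.0735), and the second with a replicate block (0.0523). It was 1 of 11 tested paralogs lower in F1 (2 by DESeq2), a share near the 9.66% of all tested genes called lower. The list median in F1 was -0.39 beside 0.12 for all tested genes. In ddm1 against F1, SUVH1 and ORL1 were the 2 of 11 called higher, where 10.3% of all tested genes were.

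The methyl donor S-adenosylmethionine is made by SAM synthetases and recycled by the genes of its cycle. Of 11 such genes, all tested, 4 were lower and 0 higher in F1 against wild type, with a median log2 fold change of -0.99 beside 0.12 for all tested genes, of which 9.66% were called lower. The leaf markers were lower in the same libraries (8 of 9 called, median -3.00), and their part in the SAM cycle values was not tested. MAT4, a SAM synthetase whose loss is known to reduce DNA methylation, stood at 72.6, 97.8 and 36.7 CPM in Col-0, 12.7, 9.05 and 23.4 in F1 and 45.1, 32.3 and 48.2 in ddm1. Its F1 libraries were below all others, and it fell by 2.20 on the log2 scale (SE 0.44, edgeR adjusted p = 0.00750). The methionine synthase MS1 fell by 1.96 (SE 0.41, edgeR adjusted p = 0.00871) and the SAM synthetase MAT3 by 1.97 (SE 0.55, edgeR adjusted p = 0.0303). SAHH2, which breaks down the product of methylation, had 661, 2691 and 115 counts in Col-0 and 26, 3 and 41 in F1 (log2 fold change -5.48, SE 1.72, edgeR adjusted p = 0.0468). Its log2 fold change was -4.05 without wild-type library 2 (edgeR adjusted p = 0.137) and ran from -6.09 to -4.98 without any other wild-type or F1 library. The MAT4 and MS1 calls held in all 16 alternative fits, while MAT3 was lost in 5 and SAHH2 in 7. In ddm1 against F1, MAT4 was higher by 1.48 (SE 0.43, edgeR adjusted p = 0.0460, lost in 7 of 16) and MS1 by 1.58 (SE 0.40, edgeR adjusted p = 0.0288, lost in 4 of 16). These were the 2 of 11 called higher there, where 10.3% of all tested genes were. Of the leaf markers, 6 of 9 were called higher in that comparison (median 2.22). Without wild-type library 1 or 2 or F1 library 1 or 2, and with a replicate block, 2 of the 11 were called lower in F1 against wild type. In ddm1 against wild type edgeR called 0 of 11 (0 at an unadjusted p under 0.05, and 0 by DESeq2). Of all tested genes, 7.37% were called there. MAT4 was at -0.72 (SE 0.42) and SAHH2 at -1.05 (SE 1.40).

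Among 7 other chromatin remodelling ATPases, INO80 was the 1 called higher in F1 than in wild type, where 13.5% of all tested genes were (log2 fold change 0.64, SE 0.18, edgeR adjusted p = 0.0324), with 33.3, 28.1 and 35.0 CPM in Col-0, 52.4, 52.2 and 45.0 in F1 and 31.2, 32.0 and 27.9 in ddm1. The F1 libraries were above all others, yet the call was lost in 12 of 16 alternative fits, and that in ddm1 against F1 (log2 fold change -0.72, SE 0.18, edgeR adjusted p = 0.0286) in 9. INO80 was the 1 of 7 called lower in ddm1 against F1, where 6.21% of all tested genes were. In ddm1 against wild type edgeR called 0 of 7 (0 at an unadjusted p under 0.05, and 0 by DESeq2), beside 7.37% of all tested genes. CHR11 and PKL had the largest log2 fold changes there (0.26, SE 0.20, and 0.20, SE 0.17). Of the 29 S phase genes, 19 were tested. RNR2A, a subunit of the enzyme that makes DNA precursors, was the 1 of 19 lower in F1, where 9.66% of all tested genes were called lower (it fell by 1.3 on the log2 scale, SE 0.24, edgeR adjusted p = 0.00506), and 18 of the 19 values were below 0, with a median of -0.91. In ddm1 against F1 RNR2A was again the 1 of 19 called, higher by 0.81 (SE 0.24, edgeR adjusted p = 0.0481, lost in 10 of 16 alternative fits), where 10.3% of all tested genes were called higher. The list median was 1.54 and 1 of the 19 values was below 0. In ddm1 against wild type edgeR called 0 of 19 (0 at an unadjusted p under 0.05, and 0 by DESeq2), beside 7.37% of all tested genes. The list median was 0.32. CDC6, which loads the replicative helicase, had a log2 fold change of -1.3 (SE 1.1) and the polymerase subunit gene ICU2 one of 1.24 (SE 1.40).

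**Figure D5:**
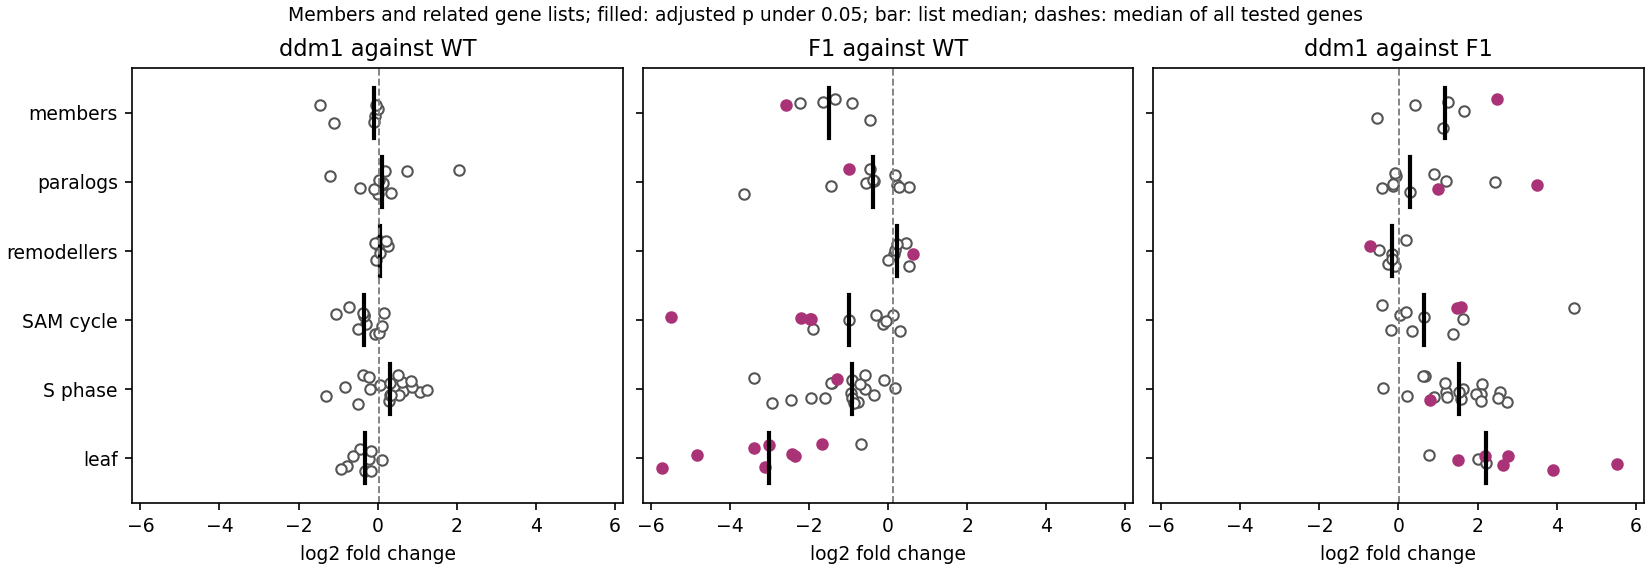
Log2 fold changes of the tested members and of tested genes in 5 related lists for each comparison (1 point per gene, filled where the edgeR adjusted p is under 0.05, black bars the list medians, dashes the median of all tested genes). In F1 against wild type the members, the paralogs, the SAM cycle, the S phase and the leaf lists lie mostly below the median of all tested genes. In ddm1 against wild type no point is filled.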

How the data were processed

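The authors' deposited tables gave estimated counts and TPM per target, made with kallisto 0.46.0, as the submitters' processing notes say. These notes also name TAIR10, STAR, deepTools, R and DESeq2 without a role. The sources used here give neither the index nor the strand setting. RNA was depleted of ribosomal RNA and read as single 50-base ends from directional libraries, per the labels' protocols.

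Estimated counts were rounded, and all 9 libraries were fitted by group in edgeR 4.0.16 (R 4.3.3) with TMM scaling, filterByExpr and the robust quasi-likelihood test. An adjusted p (Benjamini-Hochberg over 18216 genes) under 0.05 was a call. SE and 95% intervals came from the F statistic. The code was tested on simulated data. Alternatives were DESeq2 1.42.0, RLE factors, no filter, no organelle or rRNA loci, only the groups compared, a replicate block and each library left out. No library repeated another of its group (chi-square per gene of 21.9 or more). Pairs from different groups were not compared in this way. Positions, windows and promoters came from RefSeq TAIR10.1, whose nuclear chromosomes are those of TAIR10, using per locus the transcript nearest the target's length.

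Members and lists were chosen with earlier results of these data known. Named genes were the members, the called genes of each list, its 2 largest changes in ddm1, called neighbours and the nearest profile of each tested member. Low counts limit precision, and intervals cover counting error only where stated.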

Additional observations from a re-analysis of the deposited data

How the results depend on the processing

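Calls of the members were few and rested on single libraries. Lower members in F1 against wild type numbered 1, or 2 with DESeq2 and 0 with the highest S phase library of each group left out (an alternative chosen after seeing the data), and 0 to 1 with 1 library left out. Higher members in ddm1 against F1 numbered 0 to 1 with 1 library left out. CMT2 in F1 also passed without F1 library 3 (log2 fold change -2.42, edgeR adjusted p = 0.0425). The values of ddm1 against wild type near 0 changed sign between fits, as did that of VIM1 (-1.11 in the main fit), and the cause was not tested. CMT2 was -0.0159 with RLE factors and -0.0164 with DESeq2. CMT3 was 0.0899 with the replicate block and 0.26 without the highest S phase libraries, and MET1 was 0.14 there. With 1 library left out, the log2 fold changes ran from -0.23 to 0.65 for CMT2, -0.59 to 0.75 for CMT3, -0.74 to 0.81 for MET1, -3.56 to 0.28 for VIM1 and -0.11 to 0.0611 for SUVH6, and that of VIM1 in ddm1 against F1 from -1.33 to 1.77.

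Over all tested genes, those lower in ddm1 against wild type numbered 91, or 220 with DESeq2, 51 with the replicate block, 369 without the highest S phase libraries and 39 to 195 with 1 library left out. In F1 against wild type 2466 were higher and 1760 lower, or 1615 higher with the replicate block, and 1310 to 3062 higher and 877 to 2225 lower with 1 library left out. In ddm1 against F1 1876 were higher and 1131 lower, or 952 and 389 with the replicate block, 2863 higher without the highest S phase libraries, 700 lower without a filter, and 680 to 2366 higher and 259 to 1061 lower with 1 library left out.

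The replicate numbers did not pair the libraries: 2 of 9 same-numbered pairs had deviations from the group means that correlated above 0.1 (r from -0.43 to 0.20), and 0 of 9 libraries correlated best with both of their number. The highest correlations lay between libraries of unlike number, wild-type library 2 with ddm1 library 3 (r = 0.44) and with F1 library 3 (r = 0.34). What these libraries share was not tested, and a block by replicate number does not model it. With the block, the CMT3 values were -2.54 in F1 against wild type (edgeR adjusted p = 0.0233) and 2.63 in ddm1 against F1 (0.0372).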

Other observations

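The gene whose profile over the 9 libraries came closest to that of MET1, by the root mean square difference of log2 CPM centred on each gene's mean, was the tubulin gene TUA4 (0.195), and the nearest member, CMT3 (0.684), ranked 2048 of 18215. For CMT3 the closest gene was ATDUF1 (AT1G03300, 0.366) and the nearest member was MET1, at rank 300. The closest to CMT2, VIM1, KYP and SUVH6 were AT5G14210 (0.289), AT1G29070 (0.427), the sulfate transporter SULTR4;1 (0.381) and AT4G38900 (0.0925). These distances describe 9 libraries that share genotypes.

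Of the 20 loci next to the members, 8 were tested and AT2G22730 and AT2G35155 were called, both in comparisons with F1. In F1 against wild type 1 of the 8 was higher and 1 lower, where 23.2% of all tested genes were called. In ddm1 against F1 1 was higher, where 16.5% of all tested genes were called. In ddm1 against wild type 0 were called, beside 7.37% of all tested genes. AT2G22730 was higher in F1 than in wild type (log2 fold change 2.66, SE 0.65, edgeR adjusted p = 0.0174), while SUVH6 had -0.47 there. Its gene span overlaps that of SUVH6 on the opposite strand, but their transcripts share no 50-base window. AT2G35155, beside SUVH5, fell by 1.28 in F1 (SE 0.37, edgeR adjusted p = 0.0338) and was 1.51 higher in ddm1 than in F1 on the log2 scale (SE 0.37, edgeR adjusted p = 0.0258). Each of these calls was lost in 5 of 16 alternative fits.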
